A study of Mus musculus with 35 samples.

Results

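The comparison set hearts of IRS1KO mice after TAC against hearts of WT mice after TAC, across all genes. TAC, transaortic constriction, is a surgical narrowing of the aorta that loads the left ventricle with pressure. The IRS1KO mice carried a floxed Irs1 gene and a Cre recombinase under the alphaMHC promoter, which drives it in cardiomyocytes, so Irs1 was targeted there and other cells of the heart kept the gene. The WT mice carried a floxed Irs2 gene and no Cre. All mice were of the C57Bl/6/FVB strain and 6 weeks old, and the apex was taken 3 days after surgery. The members were the 6 IRS1KO TAC libraries and the 5 WT TAC libraries, 11 of the 35 libraries of the study. The sham-operated groups of both genotypes, with 6 libraries each, served to show which differences were there without TAC. The study asked how cardiomyocyte loss of an insulin receptor substrate alters the transcriptional response to pressure overload. No group had Cre alone and none had floxed Irs1 without Cre, so effects of losing Irs1, of Cre, of the floxed alleles and of line background cannot be told apart here. Nothing in the labels ties a library to its own animal, so p-values measure the spread between libraries, which may be technical.

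Irs1 encodes an adaptor protein that couples the insulin and IGF-1 receptors to phosphatidylinositol 3-kinase and Akt, and Irs2 encodes its close relative. In the heart this pathway promotes glucose uptake, growth and survival of cardiomyocytes. Under pressure load the ventricle re-expresses fetal genes such as the natriuretic peptides, lays down matrix, and lowers genes of fatty acid oxidation and mitochondrial respiration.

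Poly(A) RNA was sequenced, and each of the 11 libraries held between 11707111 and 14609467 reads assigned to genes, with 19269 to 20803 genes detected. Values are the deposited counts normalized for depth, and group values are means ± SD (n = 6 for IRS1KO TAC and n = 5 for WT TAC; sham groups n = 6). Log2 fold changes are on the log2(value + 1) scale with IRS1KO over WT, SE is that of the fit, and folds in words are ratios of group means. A gene was called when its adjusted p was below 0.05 (limma, Benjamini-Hochberg over 13711 genes with a mean of at least 10). Adjusted p-values below come from that test unless another is named. Mitochondrial genome transcripts took 19.53 ± 3.23% of reads in IRS1KO TAC libraries and 23.43 ± 2.19% in WT TAC libraries. The first principal component of the 11 libraries held 41.2% of the variance and split both groups. WT TAC replicate 2 lay at -62.7 and IRS1KO TAC replicate 5 at -24, while IRS1KO TAC replicates 2, 4 and 6 lay between 35.3 and 38.2.

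Irs1 (ENSMUSG00000055980, chr1:82233101-82291416, minus strand, GRCm38) was lower in IRS1KO TAC hearts. Its normalized counts had a lowest value of 0, a median of 20.4 and a highest of 80.3 in IRS1KO TAC libraries, against 221, 203, 139, 135 and 206 in WT TAC libraries. The groups did not overlap, and the highest IRS1KO value, 80.3 in replicate 5, stood apart from the other 5, which lay between 0 and 26.7. The log2 fold change was -3.46 (SE 0.83) and missed the threshold across all genes (adjusted p = 0.0672). By an exact two-sided permutation test of this single gene p was 0.00433, where 0.00216 is the smallest p that 462 regroupings allow. Without replicate 5 the limma adjusted p was 0.0214, and edgeR gave 0.0228 with all libraries. In sham hearts Irs1 averaged 25.9 ± 15.1 in IRS1KO and 233 ± 52.5 in WT (adjusted p = 0.0182). Irs2 lay between 185 and 959 in IRS1KO TAC libraries with a median of 238, against 287, 252, 130, 223 and 303 in WT TAC libraries. The groups overlapped (log2 fold change 0.49, SE 0.40, adjusted p = 0.571; exact permutation p = 0.333).

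IRS1KO TAC replicate 5 also departed from the other IRS1KO TAC libraries at genes that separate the mouse lines. Trim12a, an antiviral tripartite-motif gene, stood at 78.3 in that library and between 0 and 0.971 in the other 5 IRS1KO TAC libraries. Its WT TAC values were 110, 143, 178, 87.9 and 157. Lrrc4b, a synaptic adhesion gene, stood at 86.2 in replicate 5 and between 35 and 45.6 in the other 5. At 23 genes that marked the genotype in sham hearts (called, a log2 fold change of at least 3 in size, no overlap), replicate 5 was nearer to the IRS1KO sham mean at 18. The other IRS1KO TAC libraries were nearer to it at 19 or 20, and WT TAC libraries at 0 or 1. On a scale where WT sham is 0 and IRS1KO sham is 1, the median position over these genes was 0.89 in replicate 5, 0.82 to 0.94 in the other IRS1KO TAC libraries and -0.05 to 0.01 in WT TAC libraries. Counts and values without replicate 5 are therefore given for the lists and named genes whose calls it moves.

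**Figure D1:**
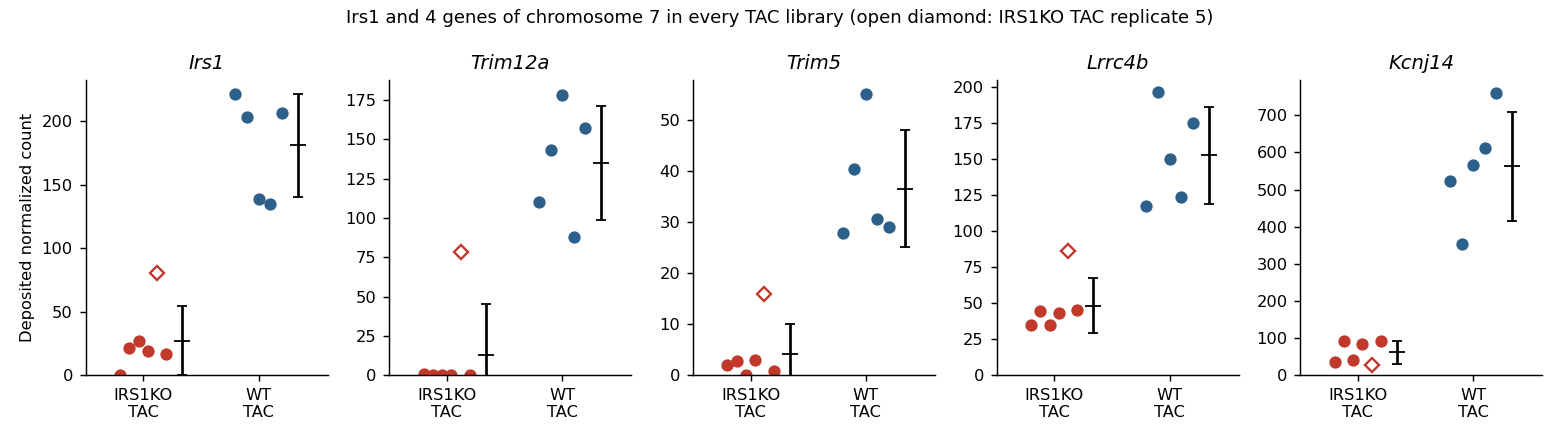
Deposited normalized counts (y axis, linear) of Irs1, Trim12a, Trim5, Lrrc4b and Kcnj14 in the 6 IRS1KO TAC and 5 WT TAC libraries, with each group's mean and SD as a bar beside the points. Replicate 5 of IRS1KO TAC (open diamond) is the highest IRS1KO library for Irs1 (80.3), Trim12a (78.3), Trim5 (15.9) and Lrrc4b (86.2), and each of these values lies below every WT TAC value.

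Of the 13711 genes tested, 211 were called (1.54%), with 107 higher (0.78%) and 104 lower (0.759%) in IRS1KO TAC hearts. The groups did not overlap at 192 of these, against 374 of all genes tested (2.73%). Of the 107 higher genes, 97 had every IRS1KO library above every WT library (1.49% of all genes tested), and of the 104 lower genes 95 had every IRS1KO library below (1.24%). On the recovered reads edgeR called 209 genes (1.52%) and DESeq2 542 (3.95% of 13708), and a limma fit with all 6 groups called 639 (4.66%). A log2 fold change of at least 1 in size was reached by 117, of which 51 were higher and 66 lower. Predicted or pseudogene names made up 47 of the 211, and 60 higher and 53 lower genes with established names averaged 100 or more in 1 of the groups. The median log2 fold change over all genes tested was 0.007. With the same total set for every library that median moved to 0.14, and 165 genes were then higher and 93 lower, 64.0% of calls against 50.7% in the deposited scaling. Without replicate 5 of IRS1KO TAC 430 genes were called (3.14%), 198 higher and 232 lower, and these held 207 of the 211. Without that library and WT TAC replicate 2, a setting chosen after seeing the data, 300 were called, 183 of the 211 among them.

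The natriuretic peptide gene Nppa was higher in IRS1KO TAC hearts, Col11a1 was higher 9.95-fold, and the sodium channel subunit gene Scn4b was lower. The 250 bases of RefSeq sequence (GRCm38.p6, plus strand, ending at the base before the annotated start) upstream of Nppa and Col11a1 are shown because these 2 genes mark the rises. Capitals mark matches, on either strand, to GATAA (bound by GATA factors), CATTCC (the M-CAT element bound by TEAD factors) and TATAAA (the TATA box).
Nppa, chr4:148000472-148000721: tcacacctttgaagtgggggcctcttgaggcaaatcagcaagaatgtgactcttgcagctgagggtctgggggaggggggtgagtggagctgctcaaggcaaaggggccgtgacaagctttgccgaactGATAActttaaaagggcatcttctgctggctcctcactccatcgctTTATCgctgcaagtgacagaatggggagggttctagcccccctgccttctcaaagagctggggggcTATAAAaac
Col11a1, chr3:114030290-114030539: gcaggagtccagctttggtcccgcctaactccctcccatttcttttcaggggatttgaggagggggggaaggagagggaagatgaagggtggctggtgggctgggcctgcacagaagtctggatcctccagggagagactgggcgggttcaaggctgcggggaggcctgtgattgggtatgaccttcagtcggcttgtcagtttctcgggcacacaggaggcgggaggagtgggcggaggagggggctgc
Nppa held 2 GATAA matches, 1 of them on the minus strand, and 1 TATAAA. None of these letters were found in the window of Col11a1. Over 32851 RefSeq windows of the same length, 22.6% held GATAA, 12.6% held CATTCC and 12.4% held TATAAA. A match describes the letters only.

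Nppa (chr4:148000722-148002079, plus strand) encodes atrial natriuretic peptide, a hormone of the embryonic ventricle that returns under load. Its lowest, median and highest values in IRS1KO TAC libraries were 16311, 20703 and 23883 normalized counts, against 10102, 6235, 6184, 6913 and 12825 in WT TAC libraries. Every IRS1KO library lay above every WT library. The means were 19972 ± 2936 in IRS1KO TAC and 8452 ± 2927 in WT TAC hearts, 2.36-fold higher in IRS1KO (log2 fold change 1.29, SE 0.20, adjusted p = 0.00449), and Nppa was called with any 1 library left out. Without TAC the difference was wider on the log2 scale, with 4045 ± 746 in IRS1KO sham and 594 ± 129 in WT sham hearts (log2 fold change 2.78, adjusted p = 2.44e-07). The effect after TAC minus that in sham was -1.49 (SE 0.26, adjusted p = 0.0296). Nppb, the neighbouring brain natriuretic peptide gene, was added after its values were seen and averaged 7087 ± 1713 in IRS1KO TAC and 5849 ± 2274 in WT TAC hearts (log2 fold change 0.32, adjusted p = 0.563). Of 18 cardiac stress and fetal genes Nppa was the only one called, 9 had a fold change above 0, and their median was 0.12. Without replicate 5 of IRS1KO TAC 2 of the 18 were called, both higher, when 3.14% of all genes were called in either direction.

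Col11a1 (chr3:114030540-114220718, plus strand) encodes a chain of type XI collagen, a minor fibril-forming collagen known from cartilage. Its values in IRS1KO TAC libraries had a lowest of 57.5, a median of 405 and a highest of 558, against 14.4, 16.3, 64.9, 16.3 and 66.7 in WT TAC libraries. Only the lowest IRS1KO value, that of replicate 5, fell within the WT range. The means were 355 ± 205 in IRS1KO TAC and 35.7 ± 27.5 in WT TAC hearts (log2 fold change 3.28, SE 0.62, adjusted p = 0.0183). Without replicate 5 the log2 fold change was 3.73 (adjusted p = 0.00193). The call held in 7 of the 11 fits that left out 1 library, and the highest adjusted p was 0.0658, without WT TAC replicate 5. In sham hearts Col11a1 was near the limit of detection, at 1.52 ± 1.25 in IRS1KO and 1.07 ± 0.947 in WT (adjusted p = 0.826). The difference of the effect between TAC and sham was 3.04 (adjusted p = 0.194), and 3.50 without IRS1KO TAC replicate 5 (adjusted p = 0.0228).

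Scn4b (chr9:45138395-45154152, plus strand) encodes the beta-4 subunit of voltage-gated sodium channels. It had a lowest value of 9.64, a median of 27.6 and a highest of 35.6 in IRS1KO TAC libraries, against 51.2, 173, 106, 150 and 126 in WT TAC libraries. All IRS1KO values lay below all WT values. The means were 24.8 ± 11.3 in IRS1KO TAC and 121 ± 46.5 in WT TAC hearts, 4.89-fold lower in IRS1KO (log2 fold change -2.28, SE 0.39, adjusted p = 0.00836). In sham hearts the means were 256 ± 140 in IRS1KO and 634 ± 160 in WT (log2 fold change -1.52, adjusted p = 0.061), and the difference of the effect did not pass the test (adjusted p = 0.708).

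**Figure D2:**
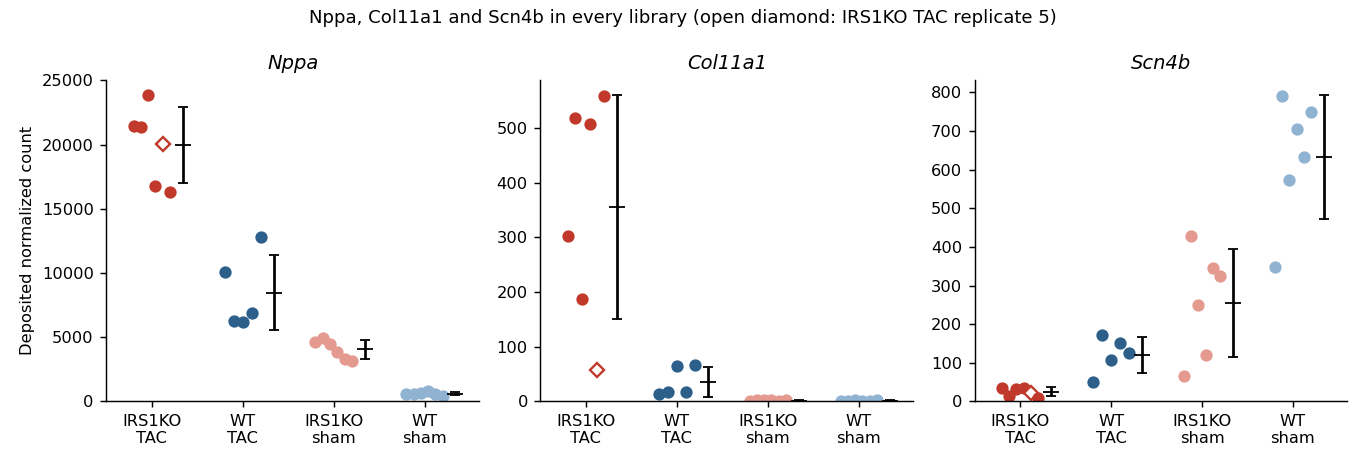
Deposited normalized counts (y axis, linear) of Nppa, Col11a1 and Scn4b in every library of IRS1KO TAC, WT TAC, IRS1KO sham and WT sham hearts, with mean and SD beside the points. Nppa lay between 16311 and 23883 in IRS1KO TAC and between 6184 and 12825 in WT TAC, Col11a1 is near 0 in both sham groups, and the mean of Scn4b is lower in TAC than in sham in both genotypes.

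A potassium channel gene was also lower in IRS1KO TAC hearts. Kcnj14 (chr7:45816460-45824782), which encodes an inward rectifier, had a lowest value of 27.8, a median of 62.7 and a highest of 93.8 in IRS1KO TAC libraries, against 523, 354, 566, 612 and 759 in WT TAC libraries. The groups were far apart, with a 9.0-fold lower mean in IRS1KO (log2 fold change -3.27, SE 0.34, adjusted p = 0.000186), and the gene was also lower in sham hearts (5.27 in IRS1KO, 229 in WT, adjusted p = 0.00223). In the list of 20 cardiac ion channel genes, which did not hold Kcnj14, Scn4b was the only one called, 5 had a fold change above 0 and the median was -0.18. None of 15 calcium handling genes was called (median -0.04). Without replicate 5 of IRS1KO TAC 2 ion channel genes and 1 calcium handling gene were called, all lower. That fit called 3.14% of all genes in either direction. With the same total per library the calcium handling median was 0.09, against 0.14 over all genes in that scaling.

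Of 20 sarcomere and Z-disc genes of the list, none was called, 2 had a fold change above 0 and the median was -0.22. Without replicate 5 of IRS1KO TAC 1 was called lower, when 3.14% of all genes were called in either direction. Other genes of muscle, taken by the rule for the largest rises and falls, were called. Myl1 (chr1:66924295-66945404), the essential light chain of fast skeletal myosin, had a lowest value of 248, a median of 310 and a highest of 390 in IRS1KO TAC libraries, against 1211, 645, 799, 1067 and 601 in WT TAC libraries. It was 2.70-fold lower with no overlap (log2 fold change -1.40, SE 0.19, adjusted p = 0.00179), while in sham hearts it averaged 265 in IRS1KO and 330 in WT (adjusted p = 0.362). Dysf, which encodes the membrane repair protein dysferlin, lay between 3140 and 4132 with a median of 3723 in IRS1KO TAC libraries, against 1816, 1462, 1885, 1668 and 2042 in WT TAC libraries. Dysf was 2.04-fold higher in IRS1KO (log2 fold change 1.03, SE 0.11, adjusted p = 0.000186) and was higher in sham hearts as well (1814 in IRS1KO, 1200 in WT, adjusted p = 0.00324). The Z-disc gene Myot averaged 272 ± 86.4 in IRS1KO TAC and 649 ± 220 in WT TAC hearts (log2 fold change -1.25, adjusted p = 0.0327). Casq1, the fast skeletal calsequestrin, averaged 174 ± 56.7 in IRS1KO TAC and 85.4 ± 17.1 in WT TAC hearts (log2 fold change 0.98, adjusted p = 0.0379), with overlap. The calls of Myot and Casq1 held in 5 and 3 of the 11 fits that left out 1 library. The titin-cap gene Tcap, a list member, averaged 3762 ± 1788 in IRS1KO TAC and 8062 ± 3653 in WT TAC hearts (log2 fold change -1.12, adjusted p = 0.115, and 0.0225 without replicate 5).

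The largest rises held genes of varied function. Plekha7 (chr7:116123485-116308376), an adherens junction gene, had a lowest value of 236, a median of 352 and a highest of 442 in IRS1KO TAC libraries, against 34.1, 29.8, 39.7, 34.7 and 48.3 in WT TAC libraries. The groups were 9.34-fold apart (log2 fold change 3.18, SE 0.16, adjusted p = 1.71e-07), and the gene was higher in sham hearts too (458 in IRS1KO, 22.4 in WT, adjusted p = 3.35e-14). Cadm1, an immunoglobulin-type adhesion molecule, lay between 65.7 and 201 with a median of 123 in IRS1KO TAC libraries, against 21.6, 18.2, 29.7, 31.7 and 35.1 in WT TAC libraries. It was 4.60-fold higher without overlap (log2 fold change 2.11, SE 0.28, adjusted p = 0.00137) and differed less in sham hearts, at 39.2 in IRS1KO and 23.4 in WT (log2 fold change 0.75, adjusted p = 0.00688). The difference of the effect for Cadm1 was 1.35 (adjusted p = 0.117, and 0.0347 without replicate 5). Zfp697, a zinc finger gene, averaged 741 ± 222 in IRS1KO TAC and 101 ± 40.2 in WT TAC hearts (log2 fold change 2.89, adjusted p = 0.000205). Lad1, an anchoring filament gene, averaged 157 ± 51.9 in IRS1KO TAC and 58.7 ± 17.0 in WT TAC hearts (log2 fold change 1.39, adjusted p = 0.00716). Mboat2, a lysophospholipid acyltransferase, Snapc1, a subunit of the small nuclear RNA activating complex, Ndnf, a secreted neurotrophic factor, and the long noncoding RNA Dubr had log2 fold changes of 1.29, 1.18, 1.18 and 2.06. These 4 genes were also called in sham hearts in the same direction. The death receptor gene Tnfrsf10b averaged 142 ± 33.5 in IRS1KO TAC and 69.9 ± 21.1 in WT TAC hearts (adjusted p = 0.0487), and its call held in 3 of the 11 fits that left out 1 library.

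The lipoprotein gene Apoe and the central complement gene C3 were lower in IRS1KO TAC hearts. Apoe (chr7:19696109-19699188), a lipid carrier made in quantity by macrophages, had a lowest value of 918, a median of 1238 and a highest of 1734 in IRS1KO TAC libraries, against 2574, 4093, 4954, 3506 and 4236 in WT TAC libraries. The groups did not overlap and were 2.96-fold apart (log2 fold change -1.57, SE 0.20, adjusted p = 0.000998). In sham hearts Apoe averaged 1882 in IRS1KO and 2558 in WT (log2 fold change -0.47, adjusted p = 0.0325). The difference of the effect was -1.10 (adjusted p = 0.102) and -1.19 without IRS1KO TAC replicate 5 (adjusted p = 0.0242). In bulk tissue, fewer cells of a type and less RNA per cell cannot be told apart. Of 21 macrophage and monocyte markers none was called and 11 had a fold change above 0. Their summed level ran between 10787 and 24928 in IRS1KO TAC libraries and between 10675 and 30219 in WT TAC libraries.

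C3 (chr17:57203970-57228136) had a lowest value of 474, a median of 515 and a highest of 970 in IRS1KO TAC libraries, against 3381, 1069, 1722, 1946 and 1077 in WT TAC libraries. The groups did not overlap, although 970 and 1069 lay close (log2 fold change -1.51, SE 0.29, adjusted p = 0.0192). The call held in 7 of the 11 fits that left out 1 library. The other complement genes among the 211 calls were picked out after their values were seen, so their number supports nothing. The classical pathway protease gene C1s1 averaged 125 ± 13.3 in IRS1KO TAC and 229 ± 32.5 in WT TAC hearts (log2 fold change -0.86, adjusted p = 0.0014). Serping1, the C1 inhibitor, averaged 867 ± 90.1 in IRS1KO TAC and 1289 ± 154 in WT TAC hearts (log2 fold change -0.57, adjusted p = 0.00836). C1ra averaged 90.9 ± 12.9 in IRS1KO TAC and 153 ± 34.5 in WT TAC hearts (log2 fold change -0.73, adjusted p = 0.0363), a call that held in 2 of the 11 fits. Cd59a, an inhibitor of the membrane attack complex, averaged 312 ± 148 in IRS1KO TAC and 764 ± 97.8 in WT TAC hearts (log2 fold change -1.43, adjusted p = 0.0323; 5 of the 11 fits), with an adjusted p of 0.0732 without WT TAC replicate 2 and IRS1KO TAC replicate 5. The lectin pathway protease gene Masp1 went the other way, at 350 ± 74.1 in IRS1KO TAC and 197 ± 23.4 in WT TAC hearts (log2 fold change 0.80, adjusted p = 0.0115). C1s1 and C1ra have close copies in the genome, so their values are less certain.

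Of the genes of branched-chain amino acid and ketone body use, 2 of 18 were called, both lower in IRS1KO TAC hearts (0.759% of all genes tested were called lower). Bcat2 (chr7:45570153-45589711), the mitochondrial branched-chain aminotransferase, had a lowest value of 852, a median of 946 and a highest of 1124 in IRS1KO TAC libraries, against 1876, 1790, 1294, 2091 and 1723 in WT TAC libraries. Bdh1 (chr16:31422280-31458901), the mitochondrial 3-hydroxybutyrate dehydrogenase, had a lowest value of 1583, a median of 1789 and a highest of 2380 in IRS1KO TAC libraries, against 3070, 3027, 2798, 3213 and 2758 in WT TAC libraries. Neither gene's groups overlapped, with log2 fold changes of -0.86 for Bcat2 (SE 0.11, adjusted p = 0.0015) and -0.66 for Bdh1 (SE 0.11, adjusted p = 0.00785). Both were also lower without TAC, Bcat2 at 1154 in IRS1KO sham and 1685 in WT sham hearts (adjusted p = 0.000248) and Bdh1 at 1732 in IRS1KO sham and 3035 in WT sham hearts (adjusted p = 0.0254). All 18 genes had a fold change below 0, with a median of -0.42, and without replicate 5 of IRS1KO TAC 6 of the 18 were called, all lower, against 3.14% of all genes called in either direction.

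Genes of mitochondrial energy production had fold changes below 0 throughout. None was called by the limma test that defined a call, or by edgeR on the 11 libraries. In 30 fatty acid uptake and oxidation genes the median log2 fold change was -0.57, in 46 nuclear oxidative phosphorylation genes -0.40, in 18 tricarboxylic acid cycle genes -0.36 and in 13 mitochondrial genome mRNAs -0.41, against 0.007 over all genes. In none of the 4 lists did a member lie above 0. Quantile normalization gave medians of -0.50, -0.33, -0.30 and -0.12 in the same order. The limma fit with all 6 groups called 5, 2, 1 and 1 members lower, when it called 4.66% of all genes in either direction. DESeq2 called 0, 0, 1 and 1 lower, against 3.95% of all genes in either direction. Slc25a20, the mitochondrial carnitine carrier, averaged 997 ± 281 in IRS1KO TAC and 1567 ± 413 in WT TAC hearts (log2 fold change -0.66, adjusted p = 0.155). Ucp3, an uncoupling protein of the inner membrane, averaged 322 ± 298 in IRS1KO TAC and 824 ± 377 in WT TAC hearts (log2 fold change -1.76, adjusted p = 0.175). Sdha, a subunit of succinate dehydrogenase, averaged 8402 ± 2217 in IRS1KO TAC and 12762 ± 2588 in WT TAC hearts (adjusted p = 0.155). Sucla2, of succinyl-CoA synthetase, averaged 3603 ± 782 in IRS1KO TAC and 5823 ± 1242 in WT TAC hearts (adjusted p = 0.0739). Without replicate 5 these 4 genes had adjusted p-values of 0.0473, 0.0407, 0.0448 and 0.0281, and the fatty acid list median was -0.70. That fit called 2, 2, 1 and 0 members of the 4 lists lower, against 3.14% of all genes in either direction. Of the 11 fits that left out 1 library, that fit called the most genes, 430, and the others called 143 to 268. The mitochondrial mRNA mt-Atp6 averaged 1328 ± 194 in IRS1KO TAC and 1722 ± 180 in WT TAC hearts without overlap (log2 fold change -0.38, adjusted p = 0.134). It was a very small part of the 13 mitochondrial genome mRNAs. These summed to between 1676767 and 2827102 in IRS1KO TAC libraries and between 2349271 and 3624371 in WT TAC libraries. How many of the mt-Atp6 reads the counting kept was not tested.

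The groups overlapped in the summed level of each list. The fatty acid genes summed to between 86554 and 194044 with a median of 127334 in IRS1KO TAC libraries, against between 133925 and 263401 with a median of 178264 in WT TAC libraries. The nuclear oxidative phosphorylation genes summed to between 189752 and 327840 in IRS1KO TAC libraries and between 221262 and 393004 in WT TAC libraries. The 10 cardiomyocyte markers stood on the same side, with none called, 1 fold change above 0, a median of -0.38 (-0.18 with quantile normalization), and sums between 435033 and 800161 in IRS1KO TAC libraries and between 546419 and 966574 in WT TAC libraries. The part of that shift, and of the lower mitochondrial read share, in the energy genes was not tested. Of the cardiomyocyte markers, the mitochondrial creatine kinase gene Ckmt2 averaged 10033 ± 3572 in IRS1KO TAC and 16183 ± 4372 in WT TAC hearts (adjusted p = 0.203). In sham hearts the cardiomyocyte marker median was -0.04, and sham libraries do not test the shift after TAC. There 16 of the 30 fatty acid genes were called lower in IRS1KO (median -0.24). So were 6 of the 18 tricarboxylic acid cycle genes, 1 of the 46 nuclear oxidative phosphorylation genes and 1 of the 13 mitochondrial genome mRNAs. Of all genes tested, 5.86% were called lower in sham.

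**Figure D3:**
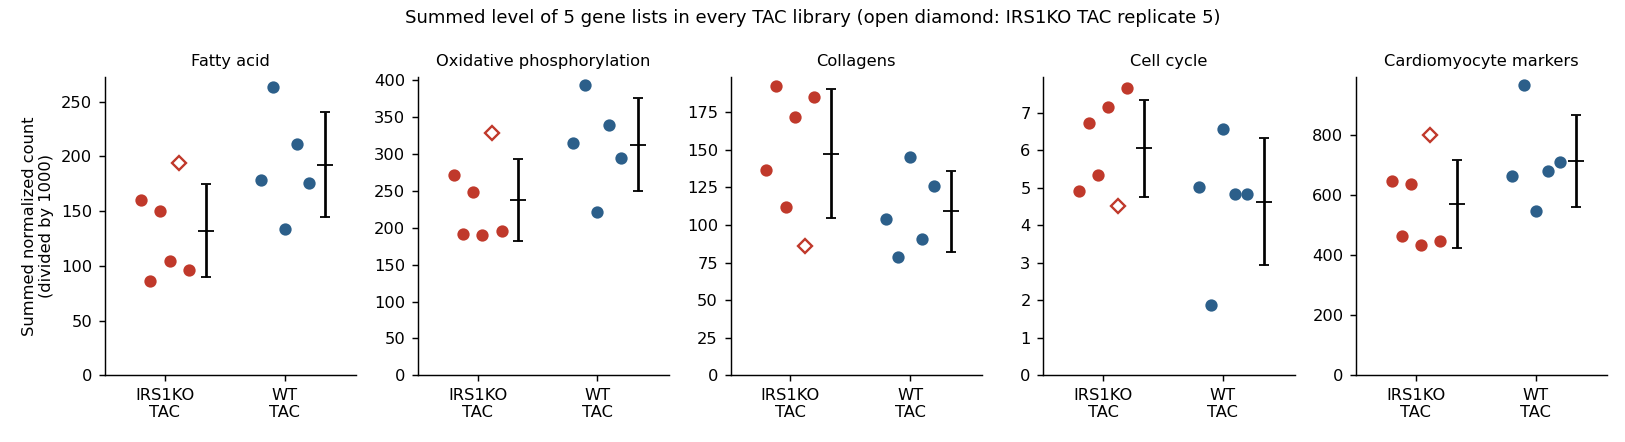
Summed deposited normalized counts, divided by 1000 (y axis, linear), of 5 gene lists in each of the 6 IRS1KO TAC and 5 WT TAC libraries, with mean and SD beside the points. IRS1KO TAC replicate 5 (open diamond) is the highest IRS1KO library for fatty acid, oxidative phosphorylation and cardiomyocyte genes, and the groups overlap in all 5 lists.

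Glucose and insulin signalling genes stood near the median of all genes. None of 23 glycolysis and glucose uptake genes was called (12 above 0, median 0.03), and edgeR called 1. In the fit without replicate 5 of IRS1KO TAC, 1 was called higher and 1 lower, against 3.14% of all genes in either direction. Pfkp, the platelet-type phosphofructokinase, averaged 3033 ± 633 in IRS1KO TAC and 1972 ± 127 in WT TAC hearts (log2 fold change 0.59, adjusted p = 0.0681) and had an adjusted p of 0.00464 without replicate 5. Pfkfb1, a regulator of glycolytic flux, averaged 28.3 ± 11.1 in IRS1KO TAC and 63.2 ± 21.8 in WT TAC hearts (adjusted p = 0.0701). None of 38 insulin and IGF signalling genes was called, with 22 above 0 and a median of 0.04, and edgeR called only the targeted Irs1, as did limma without replicate 5. Igf1r, the IGF-1 receptor, averaged 657 ± 51.3 in IRS1KO TAC and 561 ± 68.3 in WT TAC hearts (adjusted p = 0.243). None of 21 FoxO factors and targets, which insulin signalling holds down, was called (7 above 0, median -0.08), nor any of 15 PGC-1, ERR and PPAR regulators (2 above 0, median -0.14). With the same total per library the FoxO median was 0.06, against 0.14 over all genes in that scaling.

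All 19 collagen genes had a fold change above 0 with a median of 0.40, and Col11a1 was the only one called. Without replicate 5, 3 were called higher, in a fit that called 3.14% of all genes tested, 198 higher and 232 lower. Of 34 matrix glycoprotein and remodelling genes none was called, 25 lay above 0 and the median was 0.34, with 2 called higher and 1 lower without replicate 5. Postn, the fibroblast matrix protein periostin, lay between 13981 and 35544 with a median of 27435 in IRS1KO TAC libraries, against 13081, 9035, 18451, 11177 and 18576 in WT TAC libraries. The overlap came from replicate 5 of IRS1KO TAC (log2 fold change 0.91, adjusted p = 0.117, and 0.0192 without that library). Dcn, the collagen-binding proteoglycan decorin, averaged 3985 ± 426 in IRS1KO TAC and 5640 ± 938 in WT TAC hearts (log2 fold change -0.49, adjusted p = 0.0849). Of 20 TGF-beta signalling genes 18 lay above 0 (median 0.18) and none was called, against 1 higher without replicate 5. Ltbp1, which binds latent TGF-beta, averaged 941 ± 182 in IRS1KO TAC and 540 ± 141 in WT TAC hearts (log2 fold change 0.82, adjusted p = 0.0515). The collagen sum ran between 86160 and 192692 in IRS1KO TAC libraries and between 78864 and 145454 in WT TAC libraries. The 14 fibroblast markers, which share genes with these lists, had 7 above 0, a median of 0.18, and sums between 39608 and 83963 in IRS1KO TAC libraries and between 38977 and 59890 in WT TAC libraries. Their part in the matrix values was not tested.

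Of 28 cell cycle genes 27 lay above 0 and none was called. The median was 0.49 and ran between 0.17 and 0.66 as 1 library was left out. Their sums were between 4507 and 7661 in IRS1KO TAC libraries and between 1883 and 6555 in WT TAC libraries. Pcna, the replication clamp, averaged 519 ± 65.9 in IRS1KO TAC and 379 ± 109 in WT TAC hearts (adjusted p = 0.208), and the centromeric histone gene Cenpa averaged 274 ± 4.62 in IRS1KO TAC and 383 ± 85.8 in WT TAC hearts (adjusted p = 0.102). Of 21 cytokine and chemokine genes 3 lay above 0 and none was called (median -0.30, between -0.84 and -0.12 as 1 library was left out). Il1b, interleukin-1 beta, was at 1.94 to 8.52 in IRS1KO TAC libraries, against 97.0, 4.80, 33.3, 36.8 and 6.15 in WT TAC libraries. The WT values spread widely and the groups overlapped (adjusted p = 0.179).

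None of the members was called in the lists of autophagy and lysosome genes (23 tested, median 0.01), endoplasmic reticulum and integrated stress genes (27, 0.10), p53 targets (13, 0.14), antioxidant genes (15, -0.02), interferon-stimulated genes (23, -0.03), circadian genes (19, -0.01), immediate early genes (20, 0.00) and adrenergic, angiotensin and endothelin genes (22, -0.10). With the same total per library the median over all genes was 0.14. In that scaling the p53, endoplasmic reticulum and autophagy medians were 0.27, 0.23 and 0.15. The others lay between 0.03 and 0.13, below that of all genes. Without replicate 5 of IRS1KO TAC 2 autophagy, 1 circadian and 2 adrenergic list genes were called, all lower. Over the 39 lists, 6 of 657 distinct genes were called: Nppa, Col11a1, Scn4b, Bcat2, Bdh1 and Acta2, a share below the 1.54% called over all genes. Without replicate 5 of IRS1KO TAC, 35 of the 657 were called, a share above the 3.14% called over all genes. The share was also above that of all genes in the limma fit with all 6 groups (34 called, against 4.66%) and by DESeq2 (32, against 3.95%). By edgeR 8 were called, a share below the 1.52% of all genes.

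**Figure D4:**
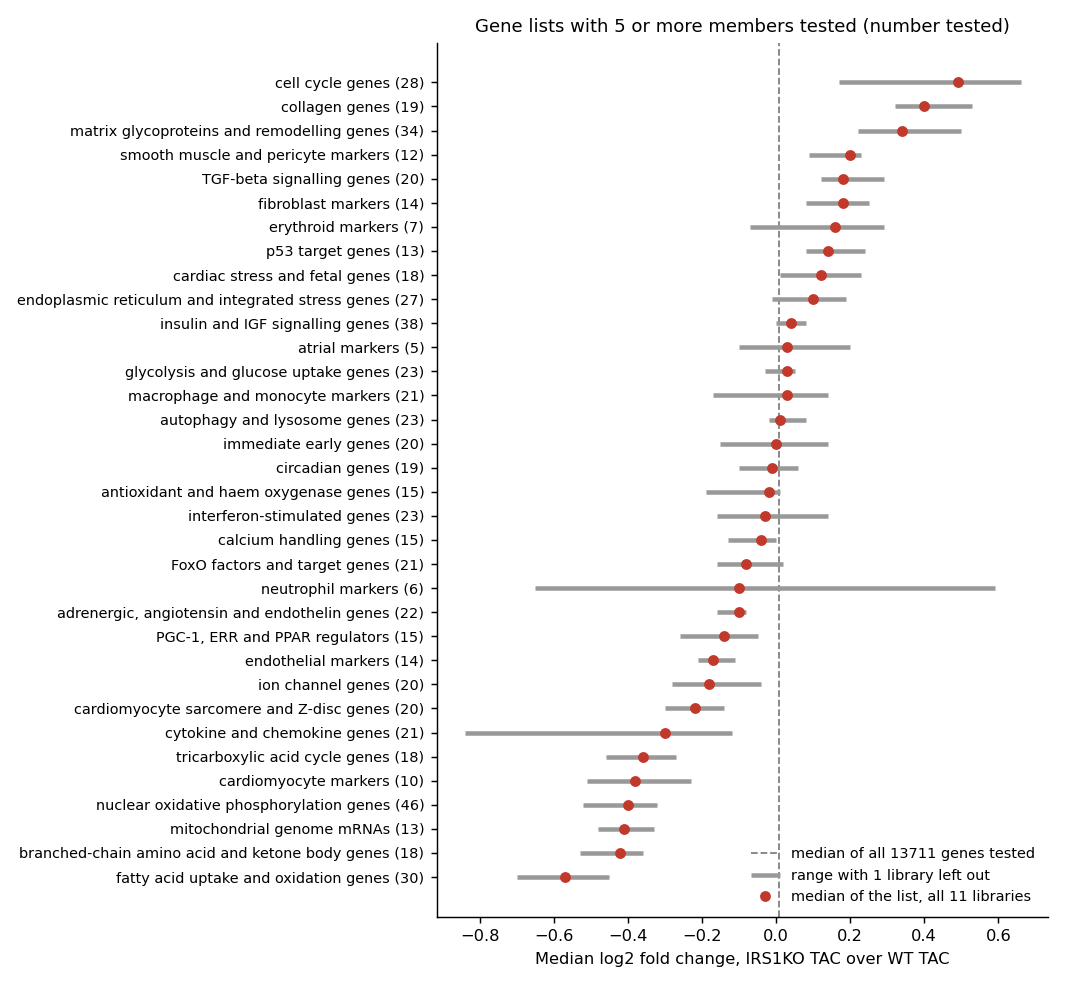
Median log2 fold change, IRS1KO TAC over WT TAC (x axis), of each gene list with 5 or more members tested, with the range of that median when 1 library is left out (grey bar) and the median over all 13711 genes (dashed line). The fatty acid list lies lowest among the pathway lists at -0.57 and the cell cycle list highest at 0.49.

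Of the marker lists of the other cell types, Acta2 was the only member called. Without replicate 5 of IRS1KO TAC 1 fibroblast marker was called higher and 1 lower, 1 endothelial marker lower and 2 smooth muscle markers higher. That fit called 3.14% of all genes in either direction. Endothelial markers had 1 of 14 above 0 (median -0.17), and sums between 12303 and 16106 in IRS1KO TAC libraries and between 13729 and 18789 in WT TAC libraries. Smooth muscle and pericyte markers had 7 of 12 above 0 (median 0.20), and sums between 60653 and 107248 in IRS1KO TAC libraries and between 55842 and 71090 in WT TAC libraries. Acta2, the smooth muscle actin also made by activated fibroblasts, lay between 3549 and 6024 with a median of 5604 in IRS1KO TAC libraries, against 2223, 2852, 4270, 2501 and 2855 in WT TAC libraries. The lowest IRS1KO value overlapped the highest WT value (log2 fold change 0.86, SE 0.18, adjusted p = 0.0319; called in 3 of the 11 fits that left out 1 library). Acta2 was also higher without TAC, at 5603 in IRS1KO sham and 1990 in WT sham hearts (adjusted p = 1.67e-06). Myl9, the regulatory light chain of smooth muscle myosin and not in the marker list, averaged 907 ± 277 in IRS1KO TAC and 463 ± 82.9 in WT TAC hearts (log2 fold change 0.93, adjusted p = 0.039; 4 of the 11 fits).

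Neutrophil markers summed to between 63 and 231 in IRS1KO TAC libraries and between 50 and 580 in WT TAC libraries, with 2 of 6 above 0. The 5 atrial markers tested, relevant to Nppa because atrial muscle makes the peptide, had 3 above 0 and a median of 0.03. Their sums ran between 25812 and 72393 in IRS1KO TAC libraries and between 22886 and 48375 in WT TAC libraries. Erythroid markers had 5 of 7 above 0 (median 0.16). Of T and NK cell, B cell, mesothelial and Schwann cell markers 1, 2, 2 and 2 passed the expression filter, and of adipocyte markers 0 passed.

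Most genes called after TAC also differed between the genotypes without TAC. Of the 211, 147 (69.7%) were called in the same direction in sham hearts, 65 higher and 82 lower, and 0 in the opposite direction. The sham comparison shares no library with that after TAC and called 1458 of the same 13711 genes (10.6%), 655 higher (4.78%) and 803 lower (5.86%). Of these 10.1% were called after TAC. The 64 genes called after TAC and not in sham held 42 higher and 22 lower ones, Col11a1, Scn4b, C3, Myl1, Myl9, Masp1, Cd59a, C1s1 and Cd86 among them. That a gene missed the threshold in sham does not show that its effect differed.

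**Figure D5:**
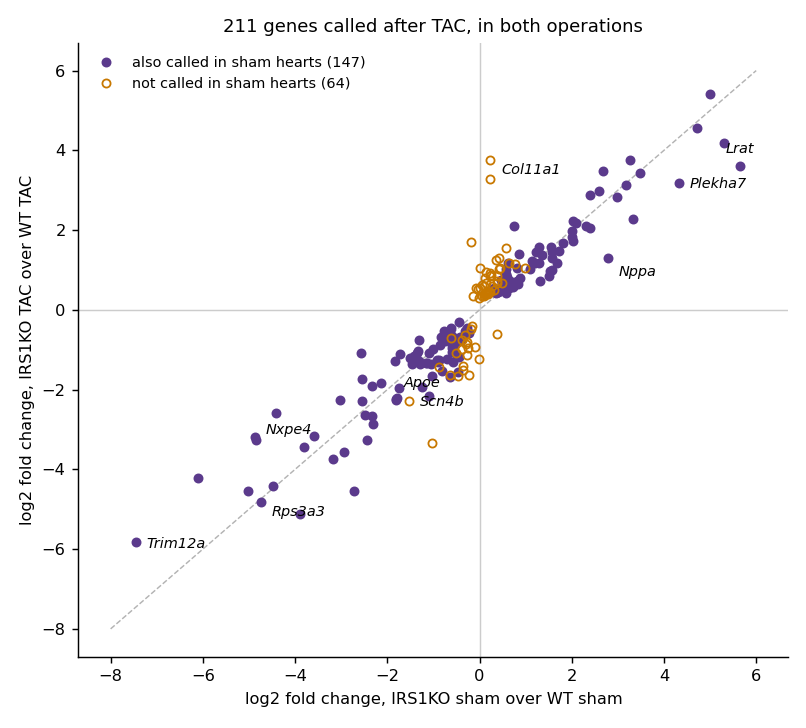
Log2 fold change, IRS1KO over WT, after TAC (y axis) and in sham hearts (x axis) for the 211 genes called after TAC, with filled points for the 147 also called in sham hearts and open points for the 64 that were not. The dashed line marks equal effects. Nppa lies below it (1.29 after TAC, 2.78 in sham) and Col11a1 lies near 0 on the x axis (3.28 after TAC, 0.23 in sham).

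The calls held genes that stand together on chromosomes. Chromosome 7 had 29 of its 1055 genes called (2.75%, against 1.54% of all genes tested), 9 higher and 20 lower. Of the 29, 26 were also called in sham hearts, against 69.7% of all 211 calls. A run of tripartite-motif genes on chromosome 7 (chr7:104244457-104507849) was lower in IRS1KO TAC hearts. Trim12a averaged 13.2 ± 31.9 in IRS1KO TAC and 135 ± 36.3 in WT TAC hearts (log2 fold change -5.83, adjusted p = 0.00901, and 6.02e-08 without replicate 5; edgeR gave 0.127). Trim5 averaged 4.10 ± 5.88 in IRS1KO TAC and 36.6 ± 11.4 in WT TAC hearts, with a log2 fold change of -3.43 (adjusted p = 0.00799). Trim30d averaged 11.4 ± 8.29 in IRS1KO TAC and 67.0 ± 34.7 in WT TAC hearts (log2 fold change -2.58), and Trim34a 12.3 ± 4.13 in IRS1KO TAC and 33.3 ± 10.6 in WT TAC hearts (log2 fold change -1.37). These are close relatives whose reads the counting could have split. Lrrc4b, Bcat2, Kcnj14 and Ush1c stand within chr7:44429018-46238503. Ush1c, a scaffold of sensory cells, averaged 36.8 ± 7.34 in IRS1KO TAC and 248 ± 101 in WT TAC hearts (log2 fold change -2.65, adjusted p = 4.55e-05). Apoe, Plekha7 and Tacc2 lie elsewhere on that chromosome. Tacc2, a centrosome-associated coiled-coil gene, averaged 5060 ± 1945 in IRS1KO TAC and 11751 ± 3490 in WT TAC hearts (log2 fold change -1.24, adjusted p = 0.0379; called in 3 of the 11 fits that left out 1 library). Chromosomes 14, 16 and 12 had 3.02%, 2.9% and 2.59% of their genes called, also against 1.54% of all genes tested.

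Other large differences were shared with sham hearts. The ribosomal protein gene Rps3a1 averaged 4699 ± 257 in IRS1KO TAC and 1827 ± 287 in WT TAC hearts (log2 fold change 1.38, adjusted p = 1.11e-05). Its processed pseudogenes Rps3a2 and Rps3a3 went the other way, at 18.8 ± 5.24 and 52.9 ± 4.28 in IRS1KO TAC, against 411 ± 51.6 and 1523 ± 209 in WT TAC hearts. Reads of these near-identical copies cannot be assigned with certainty. Nxpe4, a gene of little known function, lay between 13.6 and 27.1 in IRS1KO TAC libraries, against 186, 193, 196, 158 and 210 in WT TAC libraries (log2 fold change -3.20, adjusted p = 1.71e-07). Lnx1, a ubiquitin ligase for Numb, averaged 53.1 ± 15.7 in IRS1KO TAC and 168 ± 48.8 in WT TAC hearts (log2 fold change -1.65, adjusted p = 0.00785). The dynein light chain gene Dynlt1b averaged 48.9 ± 12.8 in IRS1KO TAC and 142 ± 27.4 in WT TAC hearts (log2 fold change -1.53, adjusted p = 0.000743) and has near-identical copies. Lrat, which esterifies retinol, averaged 20.3 ± 25.2 in IRS1KO TAC hearts and was at 0 in 4 of the 5 WT TAC libraries. No group carried the same line background without the knockout, so these differences and those of Irs1 loss cannot be told apart.

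The genotype effect after TAC differed from that in sham hearts for 10 genes (0.0729% of 13711; limma with operation weights, adjusted over all genes), 2 higher (0.0146%) and 8 lower (0.0583%) after TAC. Of these, 4 (Nppa, Plekha7, Nxpe4 and Cd86) were among the 211, and edgeR called 8 of the 10. At an unadjusted p below 0.05 there were 1384. Without IRS1KO TAC replicate 5 the count was 123, which held all 10, so the number depends on that library. No other library was left out for this test. At several genes the means stood in opposite order after TAC and in sham. Clec7a, the fungal pattern receptor dectin-1, lay between 18.1 and 37.0 in IRS1KO TAC libraries, against 171, 41.3, 219, 66.4 and 55.3 in WT TAC libraries, and averaged 40.9 in IRS1KO sham and 25.5 in WT sham hearts. The difference of the effect was -2.36 (SE 0.41, adjusted p = 0.0296). The costimulatory receptor gene Cd86 averaged 54.6 ± 3.78 in IRS1KO TAC and 84.4 ± 14.2 in WT TAC hearts, and 43.5 in IRS1KO sham and 32.8 in WT sham hearts (difference -1.0, adjusted p = 0.0326). Nr1d1, the clock repressor REV-ERB alpha, averaged 373 ± 77.5 in IRS1KO TAC and 704 ± 252 in WT TAC hearts, and 1016 in IRS1KO sham and 675 in WT sham hearts (difference -1.46, adjusted p = 0.0296). Of the endothelial gene Egfl7 the means were 466 in IRS1KO TAC and 654 in WT TAC, and 840 in IRS1KO sham and 625 in WT sham hearts (difference -0.89, adjusted p = 0.0326). Ssbp2, a single-stranded DNA binding cofactor, averaged 406 in IRS1KO TAC and 324 in WT TAC, and 272 in IRS1KO sham and 347 in WT sham hearts (difference 0.67, adjusted p = 0.0133).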

How the data were processed

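The data are poly(A) RNA sequencing of mouse heart apex, from mirVana RNA and stranded TruSeq libraries, as the labels' protocols say. The deposited signal is a count per gene divided by 1 size factor per library, given for 27012 genes. Each library's values were whole multiples of 1 value (100% of genes, tolerance 0.001), so the authors' reads could be recovered. HISAT2 2.0.6, HTSeq 0.7.1, DESeq2 and GRCm38 are named in the submitters' processing notes. No source used here gives the strand setting of the counting, so reads of overlapping antisense genes may be mixed. Symbols and coordinates came from GENCODE vM21 (GRCm38), which matched 26904 identifiers (99.6%). Depth is 11707111 to 14609467 reads per library, and no pair of libraries within a group agreed within sampling noise.

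Groups came from the labels. limma 3.58.1 (R 4.3.3, trend and robust) was run on log2(signal + 1) of the 11 TAC libraries for 13711 genes with a mean of at least 10, two-sided, with Benjamini-Hochberg adjustment over all of them and a threshold of 0.05. The same genes were tested in 12 sham libraries and for the difference of the genotype effect, with weights by operation. The pipeline was tested on simulated data. Alternatives were other pseudocounts, filters and scalings, fits with more groups, arrayWeights, a replicate block, edgeR 4.0.16 and DESeq2 1.42.0 on recovered reads, and leaving out libraries. The gene lists and the comparison were chosen with earlier results of these data known. Genes were named by a rule: Irs1, Irs2, Nppa, Col11a1, Scn4b, the 15 largest rises and 15 largest falls with a mean of at least 100, and from each list at most 4 called members, or, with none called, the 2 lowest p-values. Complement genes, Nppb, chromosome neighbours and the Rps3a copies were added after their values were seen. Not every gene that the rule took is reported here. Lists got no test. Upstream sequences are RefSeq's for GRCm38.p6. Y-linked genes had reads in all 35 libraries.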

Additional observations from a re-analysis of the deposited data

Results flagged for a closer look

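Of 142 sets of values (71 genes in the IRS1KO TAC and the WT TAC group), 7 held a library whose gap to the others exceeded the 95% critical value of Dixon's ratio. Chance flags about 1 in 20 groups, and 7 of 142 is near that share. In 6 of the 7 the library was IRS1KO TAC replicate 5. The 71 genes were those of this report, some of them described above for their value in that library. Irs1 was at 80.3 there and at 0 to 26.7 in the other 5. Trim12a was at 78.3 against 0 to 0.971, Trim5 at 15.9 against 0 to 3.1 and Lrrc4b at 86.2 against 35 to 45.6, each toward the WT values. Cd200, a membrane glycoprotein gene, was at 620 against 352 to 426, also toward WT. Lrat was at 70.4 against 4.76 to 21.4, which is away from the WT values of 0 to 0.898. The seventh was Lrat in WT TAC replicate 1, where 0.898 is 1 read and the other 4 libraries are at 0. The cause of these values was not tested.

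The genotype effect (IRS1KO over WT) differed between TAC and sham for 10 genes by the limma test of the difference itself. The log2 differences, TAC minus sham, were 0.67 for Ssbp2, 1.68 for Nxpe4, -1.49 for Nppa, -1.13 for Plekha7, -2.36 for Clec7a, -1.46 for Nr1d1, -0.86 for Cd200, -0.89 for Egfl7, -0.77 for Ets2 and -1.0 for Cd86. Cd200 averaged 427 in IRS1KO TAC and 599 in WT TAC hearts, and 814 in IRS1KO sham and 638 in WT sham hearts. Ets2, an ETS family transcription factor gene, averaged 952 in IRS1KO TAC and 1340 in WT TAC hearts, and 1365 in IRS1KO sham and 1128 in WT sham hearts. For Nppa, Plekha7 and Nxpe4 the direction was the same in both operations and the effect was smaller in size after TAC. In Nxpe4 the means were 19.9 in IRS1KO TAC and 189 in WT TAC hearts, and 7.5 in IRS1KO sham and 236 in WT sham hearts.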

How the results depend on the processing

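Against 211 calls (107 higher, 104 lower), counts were 133 (70, 63) with a mean of at least 50, 639 (283, 356) with all 6 groups sharing 1 spread, 913 (379, 534) with arrayWeights and 542 (273, 269) by DESeq2 on recovered reads. The same total per library gave 165 higher genes. Leaving out 1 library gave 143 to 430 (67 to 198 higher, 72 to 232 lower), with 67 higher without IRS1KO TAC replicate 2, 69 without replicate 4 and the highest counts without replicate 5. The replicate number as a block gave 56 calls (23, 33). Same-numbered libraries correlated at -0.44 to -0.03 in their deviations from the group means. Unpaired differences between hearts also enter these correlations, so they cannot decide whether the numbers pair libraries, and the labels do not say. Of the 211, 195 were also called by edgeR, 124 in every fit that left out 1 library and 53 with the block.

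The sham count of 1458 (655, 803) was 632 (281, 351) with all 6 groups. The 10 differences of the effect were 16 (5 higher) with all 6 groups and 123 (59, 64) without IRS1KO TAC replicate 5, a setting chosen after seeing the data. Of the 97 genes taken by the rule for names, 33 were called, 51 with all 6 groups, 62 with arrayWeights, 16 with the block and 24 to 50 with 1 library left out. Of the list genes 6 were called, 10 with no filter, 13 with the same total, 34 with all 6 groups, 92 with arrayWeights, 1 with the block, 32 by DESeq2, 18 without WT TAC replicate 2 and IRS1KO TAC replicate 5 (chosen after seeing the data), and 4 to 35 with 1 library left out, 13 of them without WT TAC replicate 3. The cause of these shifts was not tested. No named gene reversed its direction while called. Of 910 list medians, 891 moved by less than a fixed log2 cut, the same for every list, and 19 did not.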
